A study of Caenorhabditis elegans with 14 samples.

Results

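Levels of 31 genes of mitochondrial protein import, folding and turnover, out of 46856 genes listed in the deposited tables, were examined in whole *Caenorhabditis elegans* worms. The genes were chosen by name. They were all genes called tomm, timm or tin with a number, together with *hsp-6*, *hsp-60*, *dnj-10*, *dnj-21*, *lonp-1*, *clpp-1*, *ymel-1*, *spg-7*, *ppgn-1*, *phb-1*, *phb-2*, *haf-1*, *gfm-1*, *ant-1.1*, *ucp-4*, *fzo-1*, *eat-3* and *drp-1*. All 31 passed the filter on low counts in every comparison.

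The study asked which genes respond to reduced insulin/IGF-1-like signaling (rIIS) through the transcription factors DAF-16, SKN-1 and HSF-1. RNA was sequenced from 14 libraries of worms at the L4 to young adult stage, 2 biological replicates in each of 7 groups. All worms carried *rrf-3(pk1426)*, an allele that makes worms more sensitive to RNA interference (RNAi), and grew at 20 °C. The heat-shocked groups, marked HS, spent a further 2 h at 33 °C.

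The *hsf-1*i (HS) group was *rrf-3(pk1426);daf-2(e1368)* on *hsf-1* RNAi with heat shock. Its reference, rIIS-C (HS), was the same strain on empty vector with heat shock. C (HS) was *rrf-3(pk1426)* on empty vector with heat shock. The *skn-1*i and *daf-16*i groups were *rrf-3(pk1426);daf-2(e1368)* on *skn-1* or *daf-16* RNAi at 20 °C, and their reference rIIS-C was that strain on empty vector at 20 °C. C was *rrf-3(pk1426)* on empty vector at 20 °C. The *daf-2(e1368)* allele reduces the insulin/IGF-1 receptor in the whole animal, and RNAi lowers a transcript without removing it. The *skn-1* and *daf-16* knockdowns were not heat-shocked and the *hsf-1* knockdown was studied only with heat shock.

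Most mitochondrial proteins are made in the cytosol and imported. In yeast and mammals the TOM complex of the outer membrane receives them, the TIM23 complex and its motor draw them into the matrix, and small TIM chaperones escort membrane proteins between the membranes. In the matrix the chaperones mtHsp70 and Hsp60 fold them and the proteases Lon and ClpP degrade those that fail. In *C. elegans* a failure of this system switches on the mitochondrial unfolded protein response, for which *hsp-6* and *hsp-60* are the usual reporters.

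Reads in exons ranged between 4681170 and 22767301 per library. In 6 groups 1 library had 9.39 to 9.89% and the other 22.57 to 26.34% of exon reads across exon junctions, which divides them into a low and a high read class. The C (HS) libraries had 14.3 and 16.7%, between the classes, and a split at 15% put 1 in each class wherever read class was used as a block. Of 671 genes with more than 10 non-unique exon reads in every other library, 198 had none in either C (HS) library, and in comparisons with C (HS) this difference between libraries and the effect of heat or strain cannot be told apart. Levels are given below as exon-read CPM (counts scaled to a common library size) after TMM scaling, which sets libraries so that most genes do not differ. On the deposited RPKM scale, which divides by all reads of a library, the median log2 fold change over all genes was -0.86 in *skn-1*i against rIIS-C, -0.62 in *hsf-1*i (HS) against rIIS-C (HS), -0.78 in C (HS) against C, -0.27 in rIIS-C (HS) against rIIS-C and 0.69 in rIIS-C (HS) against C (HS), so small changes can turn sign between the scales.

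The *skn-1* transcript stood at 26.2 and 25.3 CPM in *skn-1*i, against 153 and 102 CPM in rIIS-C. The *hsf-1* transcript stood at 13.6 and 13.9 CPM in *hsf-1*i (HS), against 34.2 and 42.0 CPM in rIIS-C (HS). For *daf-16* the values overlapped, at 51.7 and 40.7 CPM in *daf-16*i against 85.9 and 49.9 CPM in rIIS-C. The summed CPM of 9 body wall muscle markers was 15870 to 16576 in *skn-1*i against 2475 to 3446 in rIIS-C, 15353 to 16407 in *hsf-1*i (HS) against 5694 to 6387 in rIIS-C (HS), and 12094 to 16180 in C (HS) against 5081 to 5364 in C. The 8 intestine markers summed to 81454 to 95275 CPM in *skn-1*i against 18514 to 51302 in rIIS-C, to 110840 to 127000 in *hsf-1*i (HS) against 41078 to 68855 in rIIS-C (HS), and to 40871 to 61919 in C (HS) against 27181 to 30879 in C. The summed CPM of the 8 sperm, 6 hypodermis and 7 neuron markers was also higher in *skn-1*i, *hsf-1*i (HS) and C (HS) than in their references, without overlap, whereas the sum of the 10 germ line markers overlapped in *skn-1*i and *hsf-1*i (HS). The single markers did not all follow the sums. Of the hypodermis markers 5 were called higher and 0 lower in *skn-1*i, 4 and 0 in *hsf-1*i (HS), and 1 and 1 in C (HS), where their median log2 fold change was -0.35. Of the neuron markers 4 were called higher and 1 lower in *skn-1*i, 4 and 1 in *hsf-1*i (HS), and 3 and 2 in C (HS), and of the body wall muscle markers 8 and 1, 8 and 0, and 7 and 2 in the same groups. Of the sperm markers 8, 7 and 7 were called higher, of the intestine markers 6, 5 and 2, and none of either list was called lower. The germ line markers went the other way, with 0 called higher and 3 lower in *skn-1*i, 0 and 1 in *hsf-1*i (HS), and were split 1 and 1 in C (HS). No marker was at 0 in any library. The part of tissue make-up in the results below was not tested. In whole worms, fewer cells of a type and less RNA per cell cannot be told apart.

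Per base of coding length, *ant-1.1*, the ADP/ATP carrier of the inner membrane, was the most abundant of the genes, with a mean of 5109 RPKM over the 14 libraries. The mtHsp70 gene *hsp-6* followed at 324 RPKM, and then the prohibitin *phb-2* (231 RPKM), the small TIM *tin-13* (229 RPKM), the prohibitin *phb-1* (223 RPKM) and the chaperonin *hsp-60* (177 RPKM). The peptide exporter *haf-1* was the lowest at 1.84 RPKM, below the uncoupling protein relative *ucp-4* (14.2 RPKM) and the TIM17 gene *timm-17B.2* (14.4 RPKM). Of the 31 genes, 26 were called in at least 1 of the 8 comparisons and 11 in at least 4. The 5 never called were *tomm-7* and *tomm-40* of the TOM complex, *hsp-60*, *phb-2* and the mitofusin *fzo-1*. Values after ± are standard errors of log2 fold changes. A call is an adjusted p under 0.05 in the quasi-likelihood test of edgeR, adjusted by Benjamini-Hochberg across the genes tested. The p-values set a change against the spread between the 2 biological replicates, pooled over all groups in the fit and with information shared across genes. In every group but C (HS) the replicates also differed clearly in read class, so this spread includes that difference. The C (HS) replicates were still the least alike by a chi-square of their counts, a measure that also grows with depth. Its mean per gene was 181 in C (HS), against 6.13 to 35.9 in the other groups. Fits that include C (HS) pool its spread with that of the other groups, which limits their p-values.

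**Figure D1:**
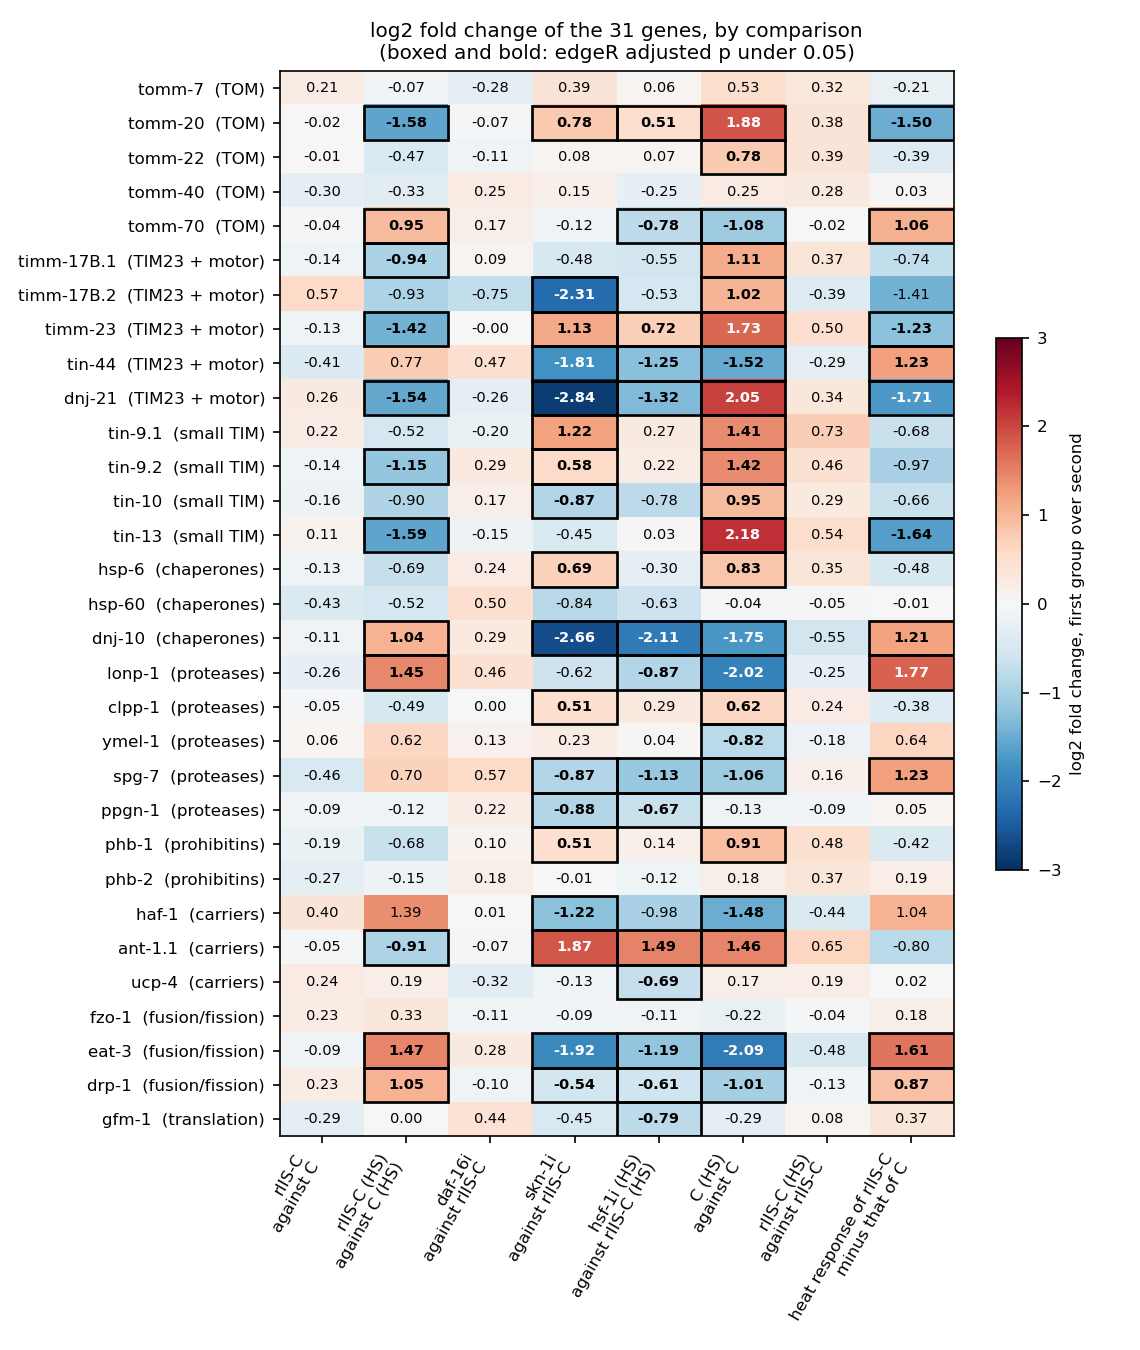
log2 fold change (first group over second, edgeR with TMM scaling) of each of the 31 genes (rows, by role) in the 8 comparisons (columns); boxes mark an edgeR adjusted p under 0.05. The columns for rIIS-C against C, *daf-16*i against rIIS-C and rIIS-C (HS) against rIIS-C hold no box, and 14 of the 78 boxed values have the opposite sign on the RPKM scale.

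At 20 °C, none of the 31 genes passed the test between the *daf-2* worms and their control. Of all 13892 genes tested in rIIS-C against C, 4.46% were called higher and 6.54% lower. Of the 31, 0 were called by edgeR, DESeq2 and limma on RPKM alike. By edgeR 1 had an unadjusted p under 0.05, beside 24.8% of all genes tested. That gene was *tin-44*, the worm TIM44, which tethers the import motor to the translocase. It had 74.97 and 96.3 CPM in rIIS-C, against 114 and 115 CPM in C, with a log2 change of -0.41 ± 0.16 (adjusted p = 0.127 by edgeR). Both rIIS-C values lay below both C values.

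The mtHsp70 gene *hsp-6* (chromosome V, 4824605 to 4826755, WBcel235, minus strand) had 690 and 454 CPM in rIIS-C, against 646 and 604 CPM in C. The chaperonin gene *hsp-60* (chromosome III, 1619759 to 1625406, plus strand) had 405 and 215 CPM in rIIS-C, against 445 and 388 CPM in C. In both genes the rIIS-C replicates lay further apart than the C replicates, and replicate 1 was the higher one. The Lon protease gene *lonp-1* (chromosome I, 10677063 to 10682372, minus strand) had 129 and 77.9 CPM in rIIS-C, against 136 and 111 CPM in C. The ClpP protease gene *clpp-1* (chromosome II, 10300824 to 10302827, minus strand) had 25.9 and 28.2 CPM in rIIS-C, against 27.5 and 28.8 CPM in C. The log2 fold changes of the 4 genes were -0.13 ± 0.20, -0.43 ± 0.38, -0.26 ± 0.25 and -0.05 ± 0.16, with edgeR adjusted p between 0.538 and 0.903. Over the 31 genes the median was -0.09, beside 0.06 over all genes. The count became 3 without rIIS-C replicate 1, 1 without rIIS-C replicate 2, and 1 with read class as a block.

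Knockdown of *daf-16* gave no called gene either. Of the 13892 genes, 3.29% were called higher and 2.78% lower in *daf-16*i against rIIS-C. Of the 31, 0 were called by edgeR, DESeq2 and limma on RPKM. By edgeR 3 had an unadjusted p under 0.05, beside 18.7% of all genes tested. The 3 were *tin-44*, the m-AAA protease gene *spg-7* and the translation elongation factor gene *gfm-1*. In *daf-16*i *tin-44* had 120 and 118 CPM, against 74.97 and 96.3 CPM in rIIS-C, with a log2 change of 0.47 ± 0.16 (adjusted p = 0.116 by edgeR). The *daf-16*i values lay above the rIIS-C values and near the 114 and 115 CPM of C.

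None of the matrix chaperones and proteases was called. In *daf-16*i *hsp-6* had 672 and 676 CPM, against 690 and 454 CPM in rIIS-C. For *hsp-60* the values were 464 and 411 CPM in *daf-16*i, against 405 and 215 CPM in rIIS-C. The *lonp-1* level was 154 and 130 CPM in *daf-16*i, against 129 and 77.9 CPM in rIIS-C. For *hsp-6* the groups overlapped, while for *hsp-60* and *lonp-1* both *daf-16*i values lay above both rIIS-C values. The *clpp-1* level was 26.9 and 27.5 CPM in *daf-16*i, against 25.9 and 28.2 CPM in rIIS-C, which overlapped. The largest of the 4 log2 fold changes was that of *hsp-60*, 0.50 ± 0.38 (adjusted p = 0.548 by edgeR). Over the 31 genes the median was 0.10, beside -0.03 over all genes. The count became 4 without rIIS-C replicate 1, when *lonp-1* was called at 0.87 (edgeR adjusted p = 0.0492), 1 without rIIS-C replicate 2, and 3 with read class as a block.

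**Figure D2:**
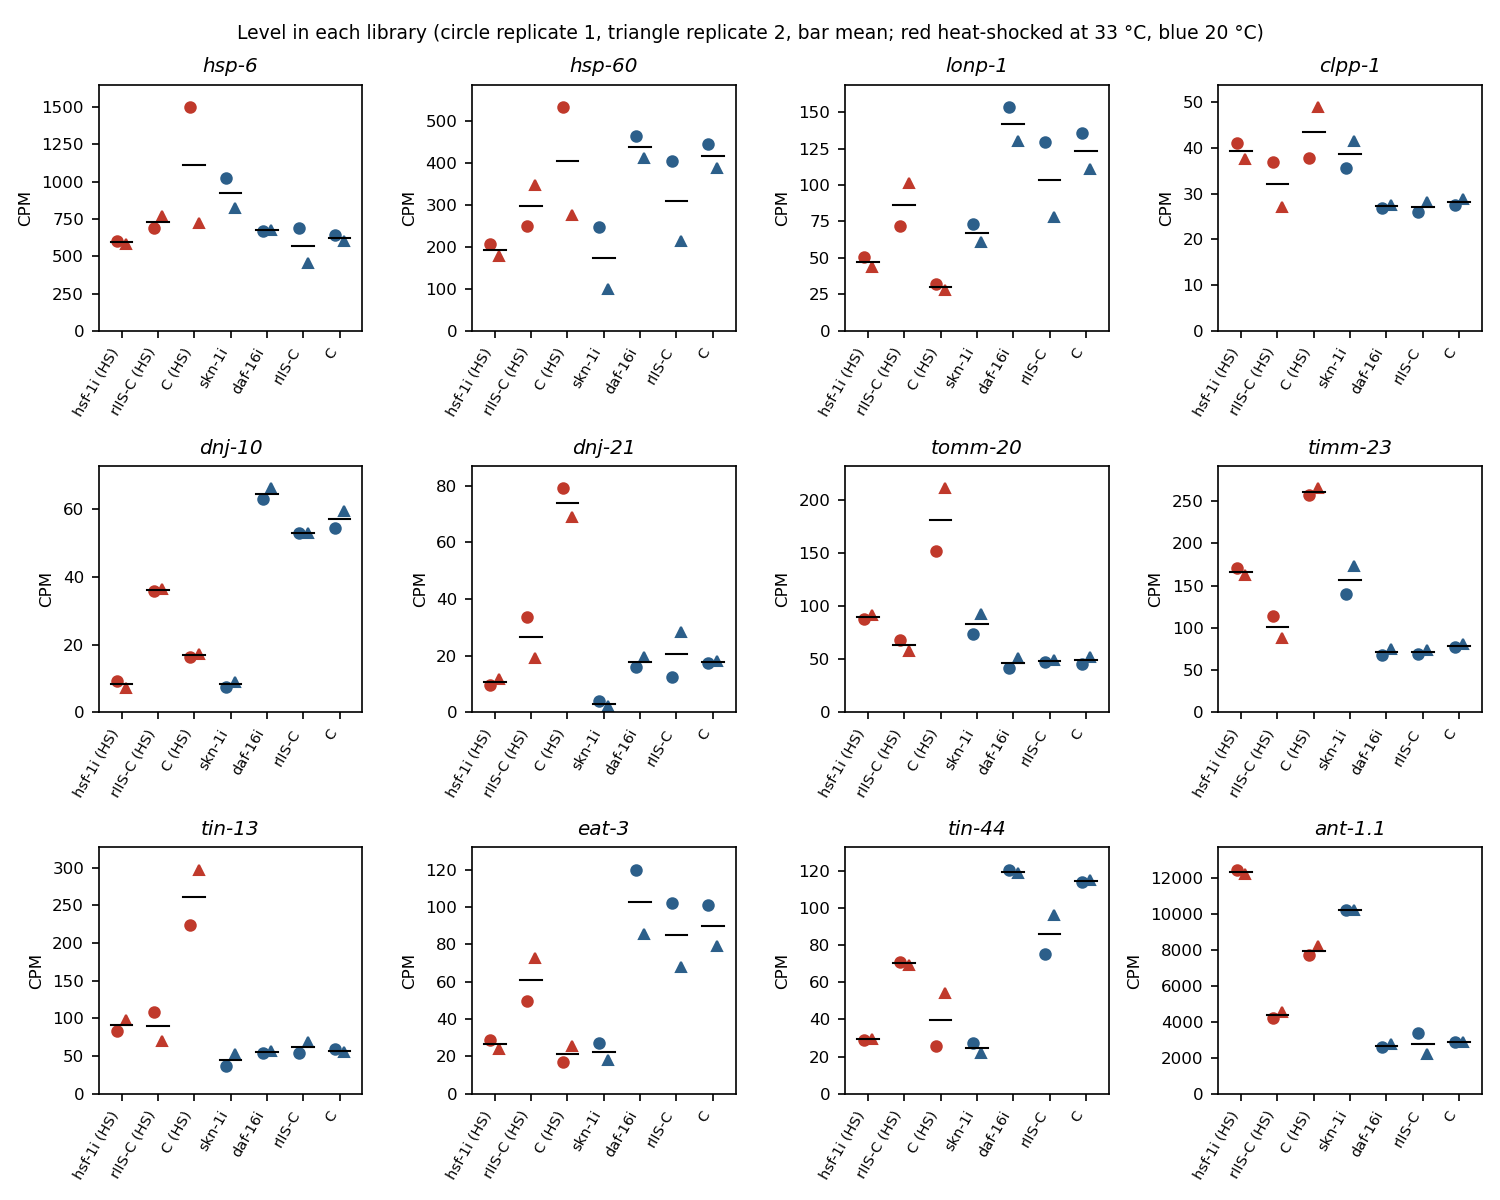
CPM (vertical axes, from 0) of 12 of the genes in each of the 14 libraries, by group (horizontal axes); circles are replicate 1, triangles replicate 2, bars group means, red heat-shocked and blue 20 °C groups. The *skn-1*i libraries have the lowest *dnj-21* levels, 3.85 and 2.34 CPM, and the C (HS) libraries the highest, 79.0 and 68.9 CPM.

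With *skn-1* RNAi the genes divided. The carrier *ant-1.1* rose on both the CPM and the RPKM scale. The translocase subunit *timm-23* rose on the CPM scale but stood at 0.11 on the RPKM scale, where it was not called. The receptor *tomm-20* rose on the CPM scale but was lower on the RPKM scale. The J-proteins *dnj-21* and *dnj-10*, *timm-17B.2*, *eat-3* and *tin-44* fell by more than 1.8 on the log2 scale. In *skn-1*i against rIIS-C 8 of 31 genes were called higher (25.8%) and 10 lower (32.3%). Of all 13892 genes tested 25.7% were called higher and 30.6% lower, so the shares of the 31 were close to the background. On the RPKM scale limma called 1 higher and 25 lower, beside 9636 of all 13899 genes in either direction. The median log2 fold change on that scale was -1.11 over the 31 and -0.86 over all genes. On the CPM scale it was -0.13 over the 31 and -0.13 over all genes.

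In the TOM complex, 1 of 5 genes was called. The receptor gene *tomm-20* (chromosome V, 12342481 to 12343467, minus strand) had 73.2 and 92.0 CPM in *skn-1*i, against 47.5 and 49.1 CPM in rIIS-C, and all values of *skn-1*i were the higher ones. Its log2 fold change was 0.78 ± 0.17 (adjusted p = 0.00221 by edgeR), but -0.25 on the RPKM scale. The receptors *tomm-22* and *tomm-70* and the channel gene *tomm-40* stood at 0.08, -0.12 and 0.15, and the small subunit *tomm-7* at 0.39, none of them called.

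The TIM23 complex and its motor moved apart. The channel gene *timm-23* (chromosome I, 11578645 to 11579480, plus strand) had 140 and 173 CPM in *skn-1*i, against 69.1 and 74.1 CPM in rIIS-C. Its log2 fold change was 1.13 ± 0.17 (adjusted p = 0.00018 by edgeR), and the groups lay well apart in CPM. On the RPKM scale the change was 0.11 and was not called (adjusted p = 0.613 by limma). The worm TIM14 gene *dnj-21* (chromosome I, 5676836 to 5677568, plus strand), whose yeast counterpart stimulates mtHsp70 in the motor, had 3.85 and 2.34 CPM in *skn-1*i, against 12.6 and 28.4 CPM in rIIS-C. It fell by 2.84 ± 0.44 on the log2 scale (adjusted p = 0.000229 by edgeR), although the rIIS-C replicates themselves differed more than those of *skn-1*i.

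The lesser TIM17 gene *timm-17B.2* (chromosome IV, 8396648 to 8397864, plus strand) had 1.42 and 2.11 CPM in *skn-1*i, against 3.87 and 13.1 CPM in rIIS-C. The difference was -2.31 ± 0.50 on the log2 scale (adjusted p = 0.00216 by edgeR), and rIIS-C replicate 2 was far above the other 3 libraries. Its more abundant paralog *timm-17B.1* was not called (-0.48). The TIM44 gene *tin-44* (chromosome I, 6178242 to 6180840, minus strand) had 27.6 and 21.8 CPM in *skn-1*i, against 74.97 and 96.3 CPM in rIIS-C. It fell by 1.81 ± 0.17 on the log2 scale (adjusted p = 7.52e-06 by edgeR) with no overlap. The gene shares 134 bases with a gene on the other strand, and these libraries carried no strand information, so reads from that stretch cannot be assigned.

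Among the small TIM genes *tin-9.1* (chromosome IV, 7044163 to 7044602, minus strand) had 42.8 and 59.5 CPM in *skn-1*i, against 17.9 and 25.6 CPM in rIIS-C. Its log2 fold change was 1.22 ± 0.23 (adjusted p = 0.000956 by edgeR), and the groups did not overlap in CPM. On the RPKM scale the change was 0.22 and was not called (adjusted p = 0.481 by limma). Its paralog *tin-9.2* was called higher at 0.58, but stood at -0.44 on the RPKM scale, and it overlaps *exos-4.1* on the same strand. The *tin-10* gene was called lower at -0.87, and *tin-13* was not called (-0.45).

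The matrix chaperones divided as well. For *hsp-6* the values were 1023 and 823 CPM in *skn-1*i, against 690 and 454 CPM in rIIS-C. All *skn-1*i values were above those of rIIS-C and the log2 fold change was 0.69 ± 0.20 (adjusted p = 0.0111 by edgeR), but -0.30 on the RPKM scale. The *hsp-60* level was 248 and 98.7 CPM in *skn-1*i, against 405 and 215 CPM in rIIS-C. These groups overlapped and the difference of -0.84 ± 0.38 was not called (adjusted p = 0.0804 by edgeR). On log2(RPKM + 1) limma called *hsp-60* lower at -1.91 (adjusted p = 0.00205 by limma). With no filter or with read class as a block edgeR also called it lower, whereas RLE size factors and DESeq2 gave no call. The gene *dnj-10* (chromosome III, 8631175 to 8633334, plus strand), a J-protein related to human TID1, had 7.503 and 9.01 CPM in *skn-1*i, against 52.9 and 53.0 CPM in rIIS-C. It fell by 2.66 ± 0.17 on the log2 scale (adjusted p = 6.86e-07 by edgeR), with replicates close together in both groups.

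Of the 5 proteases, *clpp-1* had 35.7 and 41.5 CPM in *skn-1*i, against 25.9 and 28.2 CPM in rIIS-C. The groups did not overlap and the log2 fold change was 0.51 ± 0.17 (adjusted p = 0.0212 by edgeR), but -0.49 on the RPKM scale. For *lonp-1* the values were 73.2 and 60.7 CPM in *skn-1*i, against 129 and 77.9 CPM in rIIS-C, and the difference of -0.62 ± 0.25 was not called (adjusted p = 0.0533 by edgeR). On log2(RPKM + 1) limma called *lonp-1* lower at -1.54 (adjusted p = 0.000236 by limma). With no filter or with read class as a block edgeR also called it lower, whereas RLE size factors and DESeq2 gave no call. The m-AAA protease genes *spg-7* and *ppgn-1* were called lower, at -0.87 and -0.88, and the i-AAA protease gene *ymel-1* was not called (0.23). For *ppgn-1* 75.05% of exon reads over all libraries were unique, so its level is less certain.

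The most abundant gene rose most. The carrier *ant-1.1* (chromosome III, 13463231 to 13464339, plus strand) had 10233 and 10229 CPM in *skn-1*i, against 3367 and 2231 CPM in rIIS-C. The log2 fold change was 1.87 ± 0.20 (adjusted p = 1.66e-05 by edgeR). The fusion gene *eat-3* (chromosome II, 9324888 to 9329286, plus strand), the worm OPA1 of the inner membrane, had 27.2 and 17.9 CPM in *skn-1*i, against 102 and 67.8 CPM in rIIS-C. It fell by 1.92 ± 0.30 on the log2 scale (adjusted p = 0.000229 by edgeR). In neither gene did the groups overlap. The fission gene *drp-1* (-0.54) and *haf-1* (-1.22) were called lower, *phb-1* was called higher at 0.51 but stood at -0.49 on the RPKM scale, and *fzo-1*, *phb-2*, *ucp-4* and *gfm-1* were not called.

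All 18 called genes kept their direction within the low and within the high read class. The calls came from the same libraries, so this agreement is no separate test of them. Of the 18 calls, 10 held with each of the 4 libraries left out in turn, and those of *clpp-1*, *drp-1*, *spg-7*, *phb-1*, *tin-10*, *tin-9.2*, *haf-1* and *hsp-6* were lost at least once, at edgeR adjusted p between 0.0521 and 0.298.

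With *hsf-1* RNAi under heat shock most of the called genes were lower. In *hsf-1*i (HS) against rIIS-C (HS) 3 of 31 genes were called higher (9.68%) and 11 lower (35.5%), beside 18.8% called higher and 19.3% lower of all 13892 genes. On the RPKM scale limma called 1 higher and 24 lower, beside 7545 of all 13899 genes in either direction. The median log2 fold change on that scale was -1.08 over the 31 and -0.62 over all genes. On the CPM scale it was -0.53 over the 31 and -0.05 over all genes. The genes that rose were *ant-1.1*, which was also higher on the RPKM scale, and *timm-23* and *tomm-20*, which were lower on it.

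The carrier *ant-1.1* had 12453 and 12231 CPM in *hsf-1*i (HS), against 4241 and 4568 CPM in rIIS-C (HS), a log2 change of 1.49 ± 0.20 (adjusted p = 0.0002 by edgeR). For *timm-23* the values were 171 and 162 CPM in *hsf-1*i (HS), against 114 and 88.5 CPM in rIIS-C (HS). Its log2 fold change of 0.72 ± 0.17 (adjusted p = 0.00572 by edgeR) stood at -0.06 on the RPKM scale. The receptor *tomm-20* had 87.3 and 91.2 CPM in *hsf-1*i (HS), against 67.8 and 58.1 CPM in rIIS-C (HS). Its log2 fold change of 0.51 ± 0.17 (adjusted p = 0.0319 by edgeR) stood at -0.27 on the RPKM scale. In each of the 3 genes both *hsf-1*i (HS) values lay above both rIIS-C (HS) values.

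The J-protein *dnj-10* had 9.33 and 7.20 CPM in *hsf-1*i (HS), against 35.9 and 36.5 CPM in rIIS-C (HS). It fell by 2.11 ± 0.17 on the log2 scale (adjusted p = 1.33e-05 by edgeR), the largest fall of the 31 genes in this comparison. The motor gene *dnj-21* had 9.60 and 11.8 CPM in *hsf-1*i (HS), against 33.6 and 19.3 CPM in rIIS-C (HS), and fell by 1.32 ± 0.37 on the log2 scale (adjusted p = 0.0149 by edgeR). For *tin-44* the values were 29.1 and 29.7 CPM in *hsf-1*i (HS), against 71.1 and 69.2 CPM in rIIS-C (HS), a fall of 1.25 ± 0.17 on the log2 scale (adjusted p = 0.000213 by edgeR). In all 3 the groups lay apart, and for *dnj-10* and *tin-44* the replicates nearly coincided. The fusion gene *eat-3* had 28.8 and 24.2 CPM in *hsf-1*i (HS), against 49.5 and 72.7 CPM in rIIS-C (HS), and fell by 1.19 ± 0.29 on the log2 scale (adjusted p = 0.00748 by edgeR).

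Among the proteases *lonp-1* had 50.5 and 43.6 CPM in *hsf-1*i (HS), against 71.8 and 101 CPM in rIIS-C (HS). Its fall of 0.87 ± 0.25 on the log2 scale passed the test (adjusted p = 0.0189 by edgeR) and the groups did not overlap. The m-AAA protease genes *spg-7* (-1.13) and *ppgn-1* (-0.67) were also called lower. For *clpp-1* the values were 41.2 and 37.5 CPM in *hsf-1*i (HS), against 36.9 and 27.2 CPM in rIIS-C (HS), with no call (0.29 ± 0.16, adjusted p = 0.184 by edgeR).

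Neither reporter of the mitochondrial unfolded protein response was called by edgeR on the CPM scale. On log2(RPKM + 1) limma called both lower, *hsp-6* at -1.08 (adjusted p = 0.000835 by limma) and *hsp-60* at -1.39 (adjusted p = 0.016 by limma). The *hsp-6* level was 604 and 582 CPM in *hsf-1*i (HS), against 688 and 772 CPM in rIIS-C (HS), a log2 change of -0.30 ± 0.20 (adjusted p = 0.262 by edgeR). For *hsp-60* the values were 207 and 178 CPM in *hsf-1*i (HS), against 249 and 346 CPM in rIIS-C (HS), a log2 change of -0.63 ± 0.38 (adjusted p = 0.217 by edgeR). In both genes the *hsf-1*i (HS) values were the lower ones without overlap. The receptor *tomm-70* (-0.78), *drp-1* (-0.61), *ucp-4* (-0.69) and *gfm-1* (-0.79) made up the rest of the 11 genes called lower. On unique gene reads *tomm-70* stood at -0.84 (edgeR adjusted p = 0.314) and *ppgn-1* at -0.76 (edgeR adjusted p = 0.0670), so that neither call held. None of the 4 small TIM genes or the 2 prohibitins was called.

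All 14 called genes kept their direction within each read class, in the same libraries that gave the calls, so this too is no separate test. The count was 9 without rIIS-C (HS) replicate 2 and 7 without *hsf-1*i (HS) replicate 2, and 6 of the calls, among them *ant-1.1*, *dnj-10*, *spg-7* and *tin-44*, held with each of the 4 libraries left out in turn.

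The *skn-1*i and *hsf-1*i (HS) comparisons used different RNAi and different reference libraries and called 10 genes in common, which is 55.6% of the 18 called in *skn-1*i and 71.4% of the 14 called in *hsf-1*i (HS). All 10 had the same direction. The 3 higher in both were *ant-1.1*, *timm-23* and *tomm-20*, the last 2 of them lower on the RPKM scale in at least 1 of the comparisons. The 7 lower in both were *dnj-10*, *dnj-21*, *tin-44*, *eat-3*, *drp-1*, *spg-7* and *ppgn-1*. Across the 31 genes the log2 fold changes had the same sign in 28 and a Pearson correlation of 0.88, where the points share 1 fit and 1 dispersion trend and genes are not independent replicates. Over all 13892 genes the 4253 called in both were 54.4% of those called in *skn-1*i and 80.3% of those called in *hsf-1*i (HS), and 97.0% of them had the same direction. The correlation was 0.62 and the share with the same sign 78.3% over all genes, beside 90.3% of the 31, and the shares of the 31 called in both were close to those of all genes or below them. Heat shock was applied in the *hsf-1*i (HS) comparison and not in the *skn-1*i comparison.

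**Figure D3:**
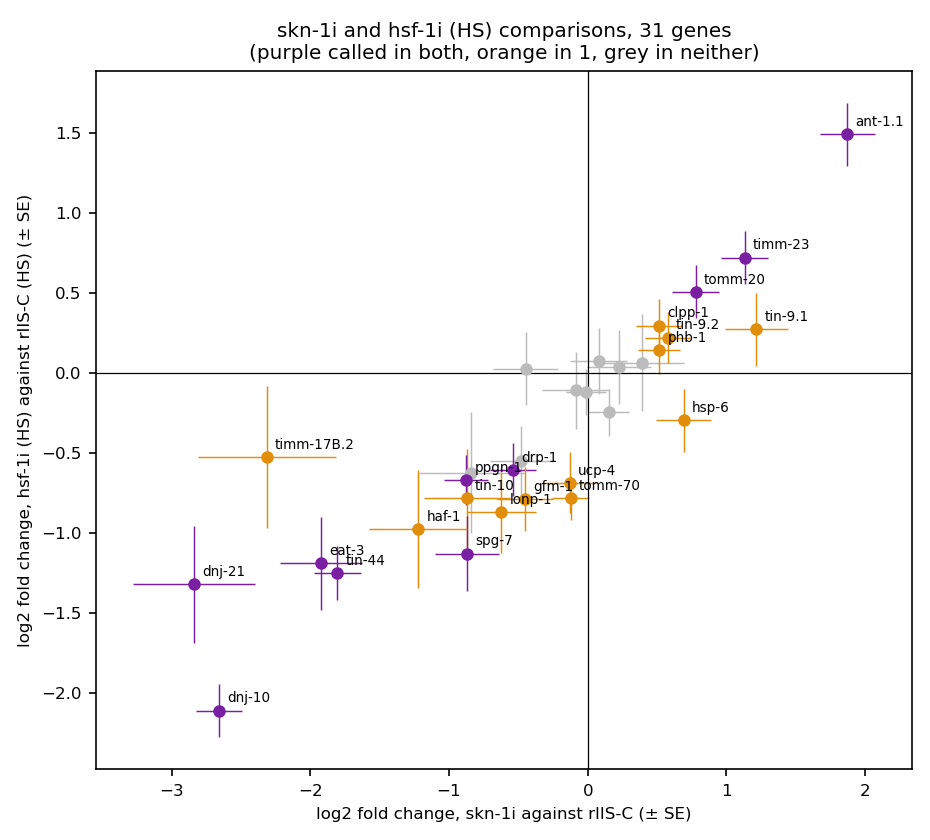
log2 fold change with its standard error in *skn-1*i against rIIS-C (horizontal axis) and in *hsf-1*i (HS) against rIIS-C (HS) (vertical axis), 1 point per gene; purple genes were called in both, orange in 1 and grey in neither. The 10 purple genes lie in the upper right (3) and lower left (7), and *hsp-6* is the called gene with opposite signs, 0.69 and -0.30.

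Heat shock of the control strain gave 23 called genes, and on the CPM scale those called higher were mostly short and those called lower mostly long. In C (HS) against C 14 of 31 genes were called higher (45.2%) and 9 lower (29.0%), beside 27.4% called higher and 24.9% lower of all 14084 genes tested, with a median log2 fold change of 0.25 over the 31 and 0.03 over all genes. On the RPKM scale limma called 3 higher and 16 lower, beside 8133 of all 14009 genes in either direction. The medians on that scale were -0.81 over the 31 and -0.78 over all genes. With the trend with length removed edgeR called 8 higher and 8 lower, beside 5837 of all 14084 genes in either direction. The direction followed the length of the gene. The genes called higher had a median coding length of 484.5 bases (237 to 1974) and those called lower 2139 bases (1278 to 2916). Of the 10 genes under 600 bases 9 were called higher and 0 lower, with a median of 1.26 beside 1.16 over all genes of that length. Of the 12 genes of at least 1500 bases 1 was called higher and 7 lower, with a median of -0.91 beside -0.96 over all genes of that length. Once the trend with length was removed 12 of the 23 calls held and *tin-10*, *tin-9.1*, *tomm-22* and *timm-17B.2* changed sign.

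The intermembrane chaperone *tin-13* (chromosome I, 8759297 to 8759779, minus strand, 327 bases) had 224 and 297 CPM in C (HS), against 59.3 and 55.5 CPM in C. It rose by 2.18 ± 0.27 on the log2 scale (adjusted p = 4.62e-05 by edgeR). The motor gene *dnj-21* (339 bases) had 79.0 and 68.9 CPM in C (HS), against 17.5 and 18.1 CPM in C, and rose by 2.05 ± 0.35 (log2, adjusted p = 0.000422 by edgeR). Both genes were higher in each C (HS) library than in either C library. The receptor *tomm-20* (567 bases) had 151 and 211 CPM in C (HS), against 45.8 and 52.4 CPM in C, and rose by 1.88 ± 0.22 (log2, adjusted p = 3.75e-05 by edgeR). The channel gene *timm-23* (729 bases) had 257 and 265 CPM in C (HS), against 76.9 and 80.4 CPM in C, and rose by 1.73 ± 0.20 (log2, adjusted p = 3.11e-05 by edgeR). The groups of all 4 genes lay apart, and all 4 were still called higher with the length trend removed.

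Among the long genes *eat-3* (2895 bases) had 16.95 and 25.4 CPM in C (HS), against 101 and 78.9 CPM in C, and fell by 2.09 ± 0.32 on the log2 scale (adjusted p = 0.000187 by edgeR). The protease *lonp-1* (2916 bases) had 32.4 and 28.2 CPM in C (HS), against 136 and 111 CPM in C, and fell by 2.02 ± 0.27 on the log2 scale (adjusted p = 8.4e-05 by edgeR). The J-protein *dnj-10* (1456 bases) had 16.5 and 17.4 CPM in C (HS), against 54.5 and 59.6 CPM in C, and fell by 1.75 ± 0.19 on the log2 scale (adjusted p = 2.26e-05 by edgeR). All 3 were lower in each C (HS) library than in either C library. The TIM44 gene *tin-44* (1278 bases) had 25.6 and 54.1 CPM in C (HS), against 114 and 115 CPM in C, and fell by 1.52 ± 0.29 on the log2 scale (adjusted p = 0.000798 by edgeR). All 4 were still called lower with the length trend removed.

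The mtHsp70 gene *hsp-6* was the long gene (1974 bases) called higher. It had 1502 and 722 CPM in C (HS), against 646 and 604 CPM in C, with a log2 change of 0.83 ± 0.30 (adjusted p = 0.0318 by edgeR) that stood at -0.33 on the RPKM scale. Without C (HS) replicate 1 the change was 0.20 (edgeR adjusted p = 0.486), and the call was also lost without either C replicate. For *hsp-60* the values were 533 and 277 CPM in C (HS), against 445 and 388 CPM in C, which overlapped (-0.04 ± 0.41, adjusted p = 0.94 by edgeR). The *clpp-1* level was 37.8 and 49.0 CPM in C (HS), against 27.5 and 28.8 CPM in C. Its log2 fold change of 0.62 ± 0.21 (adjusted p = 0.0236 by edgeR) stood at -0.45 on the RPKM scale and at 0.01 with the length trend removed.

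The other genes called higher were *ant-1.1* (1.46), *tin-9.2* (1.42), *tin-9.1* (1.41), *timm-17B.1* (1.11), *timm-17B.2* (1.02), *tin-10* (0.95), *phb-1* (0.91) and *tomm-22* (0.78), of which *timm-17B.2*, *tin-10*, *phb-1* and *tomm-22* were lower on the RPKM scale. The others called lower were *haf-1* (-1.48), *tomm-70* (-1.08), *spg-7* (-1.06), *drp-1* (-1.01) and *ymel-1* (-0.82). For *tomm-70* 100% of exon reads were unique in both C (HS) libraries, against 34.9 to 38.2% in the high and 14.9 to 17.9% in the low read class of the other groups, and on unique gene reads its change was 0.81 in place of -1.08, so its direction is uncertain in every comparison with C (HS). With 1 library left out in turn, 17 of the 23 calls held, and those of *clpp-1*, *hsp-6*, *timm-17B.2*, *tin-10*, *tomm-22* and *ymel-1* were lost at least once, at edgeR adjusted p between 0.0582 and 0.486.

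**Figure D4:**
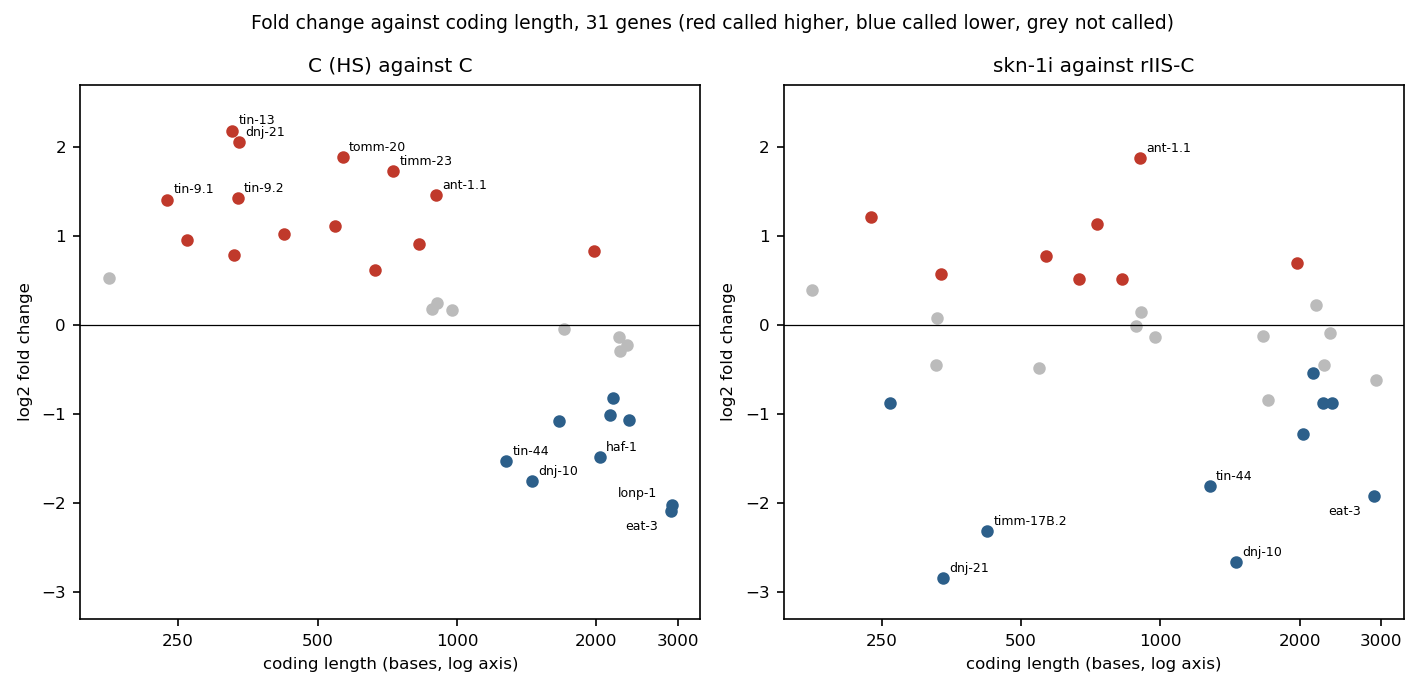
log2 fold change (vertical axes) against coding length in bases (horizontal log axes) for the 31 genes in C (HS) against C (left) and *skn-1*i against rIIS-C (right); red genes were called higher, blue lower and grey not called, on the CPM scale, where 6 called values on the left and 5 on the right have the opposite sign on RPKM. In the left panel the genes fall with length (Spearman correlation -0.78 over the 31 genes, -0.59 over all 14084), and in the right panel the correlation is -0.31.

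Heat shock of the *daf-2* strain called none of the 31 genes. In rIIS-C (HS) against rIIS-C 1.89% of all 14084 genes were called higher and 0.32% lower. By edgeR 0 of the 31 were called and 5 had an unadjusted p under 0.05, beside 16.5% of all genes tested. The 5 were *ant-1.1*, *dnj-10*, *phb-1*, *timm-23* and *tin-9.1*. DESeq2 called 1 and limma on log2(RPKM + 1) called 1. The largest change was that of *tin-9.1*, with 43.5 and 29.0 CPM in rIIS-C (HS), against 17.9 and 25.6 CPM in rIIS-C (log2 fold change 0.73 ± 0.31, adjusted p = 0.261 by edgeR). The carrier *ant-1.1* had 4241 and 4568 CPM in rIIS-C (HS), against 3367 and 2231 CPM in rIIS-C (0.65 ± 0.20, adjusted p = 0.115 by edgeR). In both genes the heat-shocked values were the higher ones.

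The matrix reporters and proteases overlapped or lay close. For *hsp-6* the values were 688 and 772 CPM in rIIS-C (HS), against 690 and 454 CPM in rIIS-C (0.35 ± 0.30, adjusted p = 0.587 by edgeR). The *hsp-60* level was 249 and 346 CPM in rIIS-C (HS), against 405 and 215 CPM in rIIS-C (-0.05 ± 0.41, adjusted p = 0.965 by edgeR). For *lonp-1* the values were 71.8 and 101 CPM in rIIS-C (HS), against 129 and 77.9 CPM in rIIS-C (-0.25 ± 0.26, adjusted p = 0.667 by edgeR). In each of the 3 genes the groups overlapped. The *clpp-1* level was 36.9 and 27.2 CPM in rIIS-C (HS), against 25.9 and 28.2 CPM in rIIS-C, also with overlap (0.24 ± 0.21, adjusted p = 0.601 by edgeR). The median was 0.24 over the 31 and -0.03 over all genes. Without rIIS-C replicate 1 the count was 1.

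The heat-shocked strains were also compared directly. Relative to C (HS), 5 of 31 genes were called higher in rIIS-C (HS) (16.1%) and 7 lower (22.6%), beside 10.4% called higher and 14.5% lower of all 13149 genes tested. On the RPKM scale limma called 13 higher and 0 lower, beside 5820 of all 12859 genes in either direction, with medians of 0.58 over the 31 and 0.69 over all genes. The genes called higher were *eat-3*, *lonp-1*, *drp-1*, *dnj-10* and *tomm-70*, and those called lower *tin-13*, *tomm-20*, *dnj-21*, *timm-23*, *tin-9.2*, *timm-17B.1* and *ant-1.1*, of which *ant-1.1* stood at 0.01 on the RPKM scale. On unique gene reads *tomm-70* stood at -0.87. The difference again followed length, with 2139 bases as the median of the genes called higher and 546 bases as that of the genes called lower. All genes showed this trend too, with a Spearman correlation of 0.55 beside 0.71 over the 31. Genes under 600 bases had a median of -0.94 in the 31 and -0.88 over all genes, and those of at least 1500 bases 0.66 and 0.65. On the CPM scale the median log2 fold change was -0.33 over the 31 and -0.07 over all genes.

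The fusion gene *eat-3* had 49.5 and 72.7 CPM in rIIS-C (HS), against 16.95 and 25.4 CPM in C (HS), a log2 change of 1.47 ± 0.30 (adjusted p = 0.0141 by edgeR). For *lonp-1* the values were 71.8 and 101 CPM in rIIS-C (HS), against 32.4 and 28.2 CPM in C (HS), a log2 change of 1.45 ± 0.27 (adjusted p = 0.0113 by edgeR). The fission gene *drp-1* (chromosome IV, 5538490 to 5541041, plus strand) had 92.8 and 97.6 CPM in rIIS-C (HS), against 41.5 and 46.9 CPM in C (HS), a log2 change of 1.05 ± 0.22 (adjusted p = 0.0165 by edgeR). All of these were above their C (HS) values in both libraries. The J-protein *dnj-10* had 35.9 and 36.5 CPM in rIIS-C (HS), against 16.5 and 17.4 CPM in C (HS), a log2 change of 1.04 ± 0.27 (adjusted p = 0.0285 by edgeR).

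In the other direction *tin-13* had 109 and 69.6 CPM in rIIS-C (HS), against 224 and 297 CPM in C (HS), a log2 change of -1.59 ± 0.30 (adjusted p = 0.0114 by edgeR). The receptor *tomm-20* had 67.8 and 58.1 CPM in rIIS-C (HS), against 151 and 211 CPM in C (HS), a log2 change of -1.58 ± 0.25 (adjusted p = 0.00764 by edgeR). For *dnj-21* the values were 33.6 and 19.3 CPM in rIIS-C (HS), against 79.0 and 68.9 CPM in C (HS), a log2 change of -1.54 ± 0.32 (adjusted p = 0.0157 by edgeR). In these 3 genes the groups did not overlap. The channel gene *timm-23* had 114 and 88.5 CPM in rIIS-C (HS), against 257 and 265 CPM in C (HS), a log2 change of -1.42 ± 0.24 (adjusted p = 0.0092 by edgeR).

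The genes *hsp-6*, *hsp-60* and *clpp-1* were not called. The *hsp-6* level was 688 and 772 CPM in rIIS-C (HS), against 1502 and 722 CPM in C (HS), with overlap (-0.69 ± 0.35, adjusted p = 0.179 by edgeR). For *hsp-60* the values were 249 and 346 CPM in rIIS-C (HS), against 533 and 277 CPM in C (HS), with overlap (-0.52 ± 0.36, adjusted p = 0.302 by edgeR). The *clpp-1* level was 36.9 and 27.2 CPM in rIIS-C (HS), against 37.8 and 49.0 CPM in C (HS), where the rIIS-C (HS) values were the lower ones (-0.49 ± 0.26, adjusted p = 0.204 by edgeR). All 12 calls depended on the replicates, with 0 left when rIIS-C (HS) replicate 2 was dropped, 6 when its replicate 1 was dropped and 19 called when C (HS) replicate 1 was dropped. With the length trend removed *ant-1.1*, *timm-23* and *tomm-20* kept their calls and the count was 4.

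Whether the strains responded differently to heat was tested as the difference of their heat responses, rIIS-C minus C. It was called positive in 7 of 31 genes and negative in 4, beside 9.97% positive and 10.6% negative of all 14084 genes. On the RPKM scale limma called 11 positive and 0 negative, beside 4076 of all 14009 genes in either direction, with medians of 0.70 over the 31 and 0.55 over all genes. The 7 were *lonp-1* (1.77 ± 0.37, adjusted p = 0.0081 by edgeR), *eat-3* (1.61 ± 0.43, adjusted p = 0.0225 by edgeR), *tin-44*, *spg-7*, *dnj-10*, *tomm-70* and *drp-1*. The 4 were *dnj-21* (-1.71 ± 0.49, adjusted p = 0.0279 by edgeR), *tin-13* (-1.64 ± 0.37, adjusted p = 0.0105 by edgeR), *tomm-20* (-1.50 ± 0.31, adjusted p = 0.00704 by edgeR) and *timm-23* (-1.23 ± 0.27, adjusted p = 0.0106 by edgeR).

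For *tin-44* the means were 70.1 CPM in rIIS-C (HS) and 85.6 CPM in rIIS-C, and 39.9 CPM in C (HS) and 114 CPM in C, a difference of 1.23 ± 0.40 between the log2 responses (adjusted p = 0.0451 by edgeR). The m-AAA protease gene *spg-7* (chromosome I, 3467134 to 3477949, plus strand) had 94.1 and 123 CPM in rIIS-C (HS), against 117 and 76.6 CPM in rIIS-C, and 75.8 and 51.2 CPM in C (HS), against 136 and 129 CPM in C. Its levels overlapped in the *daf-2* strain and lay apart in the control strain, a difference of 1.23 ± 0.38 (adjusted p = 0.038 by edgeR). The difference for *lonp-1* held with each of the 8 libraries left out in turn, and the other 10 did not. Dropping C replicate 1 left 3 calls and dropping C replicate 2 left 5, and the count was 17 with C (HS) replicate 1 dropped, 7 with rIIS-C replicate 2 dropped and 4 with rIIS-C (HS) replicate 2 dropped.

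A further list of 42 genes of mitochondrial stress response and maintenance, 40 of them tested, gives the surroundings of the 31. Its calls on the RPKM scale were added after the data were seen. By edgeR 0 were called in rIIS-C against C and 0 in rIIS-C (HS) against rIIS-C. An unadjusted edgeR p under 0.05 was found for 3 and 8 of them, beside 24.8% and 16.5% of all genes tested. There limma on log2(RPKM + 1) called 1 and 0. In *daf-16*i 1 was called lower, the ADP/ATP carrier paralog *ant-1.4* (-0.89). In *skn-1*i 15 were called higher and 10 lower, led by the complex III gene *isp-1* (1.83) and *ant-1.4* (1.31), and by *ubl-5* (-2.53), a ubiquitin-like protein of the mitochondrial stress response, and the mitochondrial Hsp90 gene *hsp-75* (-1.89), against 25.7% higher and 30.6% lower of all genes. In *hsf-1*i (HS) 8 were called higher and 9 lower, led by *ant-1.4* (1.57) and *isp-1* (1.45), and by the stomatin-like gene *stl-1* (-1.58) and *hsp-75* (-1.23), against 18.8% higher and 19.3% lower of all genes. By limma on RPKM 1 was called higher and 28 lower in *skn-1*i and 2 higher and 25 lower in *hsf-1*i (HS), while the genes named here kept their direction. Of all 13899 genes limma called 9636 in *skn-1*i and 7545 in *hsf-1*i (HS), in either direction.

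In C (HS) against C 16 of the 40 were called higher and 6 lower, against 27.4% higher and 24.9% lower of all genes. With limma on RPKM 2 were called higher and 23 lower, beside 8133 of all 14009 genes in either direction. The *ubl-5* level averaged 156 CPM in C (HS) and 16.6 CPM in C, a log2 change of 3.24, and the fission gene *fis-2* 107 CPM in C (HS) and 11.3 CPM in C, also 3.23. The homeodomain gene *dve-1*, which acts with ATFS-1 in the mitochondrial unfolded protein response, averaged 2.22 CPM in C (HS) and 8.93 CPM in C (-2.0), and *hsp-75* stood at -1.43. The gene *atfs-1* itself, the transcription factor of that response, was called by edgeR in none of the 8 comparisons. By limma on log2(RPKM + 1) *atfs-1* was called lower in *skn-1*i (-0.69), *hsf-1*i (HS) (-1.01) and C (HS) against C (-1.22). It was called higher in rIIS-C (HS) against C (HS) (1.26) and positive for the difference of the heat responses (1.02), and was not called in the other comparisons. Relative to C (HS), 3 were called higher and 7 lower in rIIS-C (HS), led by *dve-1* (2.01) and *hsp-75* (0.95), and by *fis-2* (-2.76) and *ubl-5* (-2.11). The difference of the heat responses was called positive in 3 and negative in 5. With limma on RPKM 15 were called higher and 1 lower in rIIS-C (HS) against C (HS), beside 5820 of all 12859 genes in either direction. For the difference of the heat responses 11 were called positive and 0 negative, beside 4076 of all 14009 genes.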

How the data were processed

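RNA of 14 whole-worm libraries was sequenced as single-end reads from unstranded TruSeq v2 libraries. The study's methods name alternative read lengths and sequencer models, so libraries within a comparison can differ in both. Whether read class follows them was not tested. Per the labels and the study's methods the authors called bases with CASAVA 1.8.2, aligned reads to WBcel235 in CLC Genomics Workbench and deposited counts of exon, gene, unique and junction reads per gene. The authors also deposited RPKM, exon reads scaled by exon length and by the mapped reads of the library. Of the exon lengths in the files 95.43% are multiples of 3, so they are called coding length. Exon counts were used as deposited.

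Counts were tested with edgeR 4.0.16 (R 4.3.3, TMM, filterByExpr, quasi-likelihood, 1 coefficient per group), with adjusted p under 0.05 by Benjamini-Hochberg over all genes tested. Comparisons with rIIS-C, C, *skn-1*i, *daf-16*i and *hsf-1*i (HS) came from 12 libraries, rIIS-C (HS) against C (HS) from the 6 heat-shocked libraries and heat comparisons from all 14. SE was the log2 fold change divided by the root of F. The scripts were tested on simulated data with 200 changed genes. Of 100 genes changed 2-fold, 53 were recovered in rIIS-C against C, 4 in rIIS-C (HS) against C (HS) and 28 in C (HS) against C. Of 100 changed 4-fold, 100, 87 and 93 were recovered, so a gene that was not called can still have changed by 2-fold. Reads were counted without strand, and *tin-9.2*, *tin-44*, *haf-1*, *phb-2*, *tomm-40* and *tomm-7* overlap other annotated genes, so their reads cannot be fully assigned.

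Full values were given for *hsp-6*, *hsp-60*, *lonp-1* and *clpp-1* and for the called genes with the 4 largest changes in each direction of a comparison, and other genes were added after their values were seen (*tin-44* in rIIS-C against C, *daf-16*i and *skn-1*i, and *tin-9.1* and *ant-1.1* in rIIS-C (HS) against rIIS-C). The genes and lists were chosen with earlier results of these data known. Alternatives were RLE size factors, DESeq2 1.42.0, no filter, limma 3.58.1 on log2(RPKM + 1) or log2(RPKM + 0.1) with 1 RPKM in 2 libraries or no filter, unique gene reads, removal of the trend with length, blocks, other sets of libraries in the fit, and 1 library left out in turn. Label replicate numbers did not pair the libraries (correlations of deviations -0.447 to 0.371), whereas libraries of 1 read class deviated together (0.152 to 0.447 in 15 of 15 pairs). The authors' TPM column and further columns without sample names in the rIIS-C tables were not used here. No sequences are shown.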

Additional observations from a re-analysis of the deposited data

Results flagged for a closer look

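For 11 genes the heat response differed between the *daf-2* strain and the control strain by the interaction test in edgeR, and the value given is the log2 response of rIIS-C minus that of C. It was 1.77 for *lonp-1*, 1.61 for *eat-3*, 1.23 for *tin-44*, 1.23 for *spg-7*, 1.21 for *dnj-10*, 1.06 for *tomm-70* and 0.87 for *drp-1*. It was -1.71 for *dnj-21*, -1.64 for *tin-13*, -1.50 for *tomm-20* and -1.23 for *timm-23*. Across the 31 genes this difference had a Spearman correlation of 0.77 with coding length, against 0.50 over all 14084 genes, where the points share the C (HS) libraries. The part of length, and of the reads of the C (HS) libraries, in these differences was not tested gene by gene beyond removal of the trend, after which *dnj-10*, *lonp-1*, *timm-23*, *tomm-20* and *tomm-70* were still called. For *tomm-70* the difference was -0.77 on unique gene reads (edgeR adjusted p = 0.503), so its direction is uncertain.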

How the results depend on the processing

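The numbers of called genes held within 1.5 times under RLE size factors, no filter, unique gene reads, the fit of all 14 libraries and the block by label replicate number. With that block of replicate numbers the counts were 0 in rIIS-C against C, 11 in rIIS-C (HS) against C (HS), 0 in *daf-16*i, 18 in *skn-1*i, 15 in *hsf-1*i (HS), 23 in C (HS) against C, 0 in rIIS-C (HS) against rIIS-C and 10 in the difference of the heat responses. With read class as a replicate block the counts were 1 in rIIS-C against C and 3 in *daf-16*i, and within 1.5 times in the others. With the length trend removed they were 2 in rIIS-C against C, 4 in rIIS-C (HS) against C (HS), 4 in *daf-16*i and 6 in the difference. A fit of only the groups compared gave 6 in rIIS-C (HS) against C (HS), 11 in *skn-1*i and 2 in the difference. In *hsf-1*i (HS) limma called 25 on log2(RPKM + 1), 25 on log2(RPKM + 0.1) and 24 with no filter, and in rIIS-C (HS) against rIIS-C it called 1, 0 and 1, and DESeq2 1. With 1 library left out in turn the counts ranged 0 to 3 in rIIS-C against C, 0 to 19 in rIIS-C (HS) against C (HS), 0 to 4 in *daf-16*i, 15 to 18 in *skn-1*i, 7 to 14 in *hsf-1*i (HS), 17 to 23 in C (HS) against C, 0 to 1 in rIIS-C (HS) against rIIS-C and 3 to 17 in the difference. The lone library left in a group was then assumed to vary like the other groups, and the number called over all genes also changed with the library left out.

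Of 1646 values of single genes, 1356 kept a call in the same direction or stayed without a call, 212 lost a call and 29 gained one. The remaining 49 changed sign and had a call in the main or the alternative fit. For values without a call in both fits the sign was not compared. On RPKM, where the changed scale moved all genes, the values at log2(RPKM + 1), log2(RPKM + 0.1) and without a filter were as follows. In *skn-1*i they were -0.49, -0.50 and -0.49 for *clpp-1*, -0.30, -0.30 and -0.30 for *hsp-6*, -0.49, -0.49 and -0.49 for *phb-1*, -0.44, -0.45 and -0.44 for *tin-9.2*, and -0.25, -0.25 and -0.25 for *tomm-20*. In *hsf-1*i (HS) they were -0.056, -0.056 and -0.056 for *timm-23* and -0.27, -0.28 and -0.27 for *tomm-20*. In C (HS) against C they were -0.45, -0.46 and -0.45 for *clpp-1*, -0.33, -0.33 and -0.33 for *hsp-6*, -0.16, -0.16 and -0.16 for *phb-1*, -0.047, -0.050 and -0.047 for *timm-17B.2*, -0.12, -0.12 and -0.12 for *tin-10*, and -0.28, -0.28 and -0.28 for *tomm-22*. In rIIS-C (HS) against C (HS) *ant-1.1* stood at 0.0080 in all 3. On unique gene reads *tomm-70* was -0.87 in rIIS-C (HS) against C (HS), 0.81 in C (HS) against C and -0.77 in the difference. With the length trend removed C (HS) against C gave -0.10 for *timm-17B.2*, -0.53 for *tin-10*, -0.17 for *tin-9.1* and -0.53 for *tomm-22*. The cause was not tested. With 2 libraries in each group, and 4681170 exon reads in the shallowest, low genes such as *haf-1* and *timm-17B.2* have the least certain values.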
